A study of Mus musculus with 2 samples.

Results

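The 10 transcription factors followed here help to set endothelial identity in the mouse abdominal aorta: the ETS factors *Erg*, *Fli1*, *Ets1* and *Ets2*, the SOXF factor *Sox7*, the helix-loop-helix factors *Tal1* and *Lyl1*, the GATA factor *Gata2*, the zinc finger factor *Mecom* and the nuclear receptor *Nr2f2*. The members were the rows of both count matrices that carry these 10 symbols, 10 of 33696 genes in all, with 1 row for each symbol. The study compared 2 libraries of dissociated suprarenal abdominal aorta from male C57BL/6J mice aged 5 months. The Control mice had received normal saline, and the AngII+HS mice angiotensin II at 1500 ng/kg/min by osmotic minipump with 0.9% NaCl and 0.2% KCl in the drinking water, for 28 days, which produces abdominal aortic aneurysm in this strain. Per the design text each library pooled the aortas of 5 mice, whereas the extraction protocol names fewer animals, and either way there was 1 library per condition. No test between conditions could therefore be made. Every interval below is a 95% exact interval that covers counting error only, and animals could differ by more.

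ETS factors bind a GGAA core and act on nearly every endothelial gene: *Erg* and *Fli1* keep mature endothelium in its state, while *Ets1* and *Ets2* are more widely expressed factors that answer growth factor signals. *Tal1* and *Lyl1* bind E-boxes, often in complexes with GATA factors such as *Gata2*, in both blood and endothelial lineages. *Sox7* is a relative of *Sox18* and *Sox17* that acts in vessel formation and arterial fate, *Mecom* (also Evi1) is associated with arterial endothelium, and *Nr2f2* (COUP-TFII) marks venous and lymphatic fate, where it works with *Prox1*.

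After filtering, the Control library held 10269 cells with a median of 7274 UMIs (unique molecular identifiers, counted mRNA molecules) and the AngII+HS library 19734 cells with a median of 3065.5. Vascular endothelial cells (VECs) numbered 838 and 1203, with 4331447 and 6189125 UMIs in all, and lymphatic endothelial cells (LECs) 138 and 156. All 5 VEC markers (*Cdh5*, *Pecam1*, *Fabp4*, *Cldn5*, *Egfl7*) stood at 506 CPM or more in the VECs of both libraries. All 5 LEC markers (*Prox1*, *Mmrn1*, *Lyve1*, *Ccl21a*, *Reln*) stood at 867 CPM or more in LECs. The clusters were named from these same lists, so the levels describe the named cells and are no independent check of the names. CPM is a gene's UMIs over all UMIs of the cells of a type, scaled to 1e6. VECs were divided into *Fn1*+ mesenchymal-like cells (c11, 494 Control and 402 AngII+HS cells), *Cd36*+ lipid-handling cells (c12, 137 and 426) and *Lrg1*+ activated cells (c13, 167 and 348), which left 40 and 27 VECs unnamed. These descriptions are the study's. Here c11 was named from *Fn1*, *Bgn*, *Eln*, *Mgp*, *Bmx*, *Efnb2* and the arterial connexin *Gja5*. The c12 list was *Cd36*, *Gpihbp1*, *Car4*, *Cd300lg*, *Rgcc*, *Rbp7* and *Aqp7*. The c13 list was *Lrg1*, *Selp*, *Sele*, *Il1r1*, *Ackr1*, *Vwf* and *Vcam1*. Of all VECs, 58.9% were c11 in Control and 33.4% in AngII+HS, so an average over all VECs also moves with this mixture. The barcode lists recorded with the libraries have the lengths of each other's matrices. Each matrix was assigned to the sample it is filed with, and if the matrices were swapped this would turn every direction below. As filed, vascular smooth muscle cells were 47.7% of Control and 3.12% of AngII+HS cells, and neutrophils 0.964% and 23.6%. The study reports a smaller share of the first and a larger share of the second in AngII+HS.

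The 10 genes lie on 8 chromosomes of GRCm39 (GENCODE vM39), in 2 cases as neighbours of the same family. *Ets1* (chromosome 9, 32547517 to 32669116, plus strand) lies 93.4 kb from *Fli1* (32333500 to 32454157, minus strand), and *Erg* (chromosome 16, 95160028 to 95387452, minus strand) 115 kb from *Ets2* (95502847 to 95522095, plus strand). *Tal1* lies on chromosome 4 (114913623 to 114928952), *Sox7* on 14 (64181006 to 64188352), *Lyl1* on 8 (85427936 to 85431569), *Gata2* on 6 (88170559 to 88184018), *Mecom* on 3 (30005439 to 30602157) and *Nr2f2* on 7 (70001692 to 70016519). *Mecom* overlaps the antisense gene *Mecomos* and *Nr2f2* overlaps the antisense gene *B130024G19Rik* in the annotation. Antisense genes of the count matrices also overlap *Fli1* (*Gm27201*), *Ets1* (*Gm27240*), *Lyl1* (*Nfix*) and *Gata2* (*Spehd*). *Erg* overlaps *Gm56622* on the same strand. The effect of these overlaps on the counts was not tested. The 3' chemistry marks strand, but the counting setting used for strand is not given in the sources used here.

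RefSeq promoter windows (GRCm38.p6) were found for 7 of the 10 members, and for none of *Fli1*, *Ets1* and *Sox7*. The 250 bases before 1 annotated start are shown for 5 of them: *Tal1* and *Gata2*, which had a similar profile over cell types, *Ets2*, which was higher in AngII+HS, and *Mecom* and *Nr2f2*, which divided the endothelial subtypes. Capitals mark GGAA, the ETS core, and GATAA, the GATA core, on either strand (TTCC and TTATC), and reads of 3' ends do not show which start a cell uses.
*Tal1* (chr4:115056176-115056425, plus strand): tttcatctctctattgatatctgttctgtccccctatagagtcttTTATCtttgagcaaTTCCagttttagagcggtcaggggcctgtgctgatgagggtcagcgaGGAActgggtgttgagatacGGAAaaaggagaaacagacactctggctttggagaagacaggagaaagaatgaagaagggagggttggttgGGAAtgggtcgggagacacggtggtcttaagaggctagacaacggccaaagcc
*Gata2* (chr6:88193641-88193890, plus strand): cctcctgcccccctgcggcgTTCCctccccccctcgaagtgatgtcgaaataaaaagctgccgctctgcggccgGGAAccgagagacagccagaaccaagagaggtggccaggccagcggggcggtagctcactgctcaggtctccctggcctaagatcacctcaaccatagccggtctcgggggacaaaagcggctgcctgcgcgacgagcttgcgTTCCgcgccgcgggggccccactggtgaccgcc
*Ets2* (chr16:95702157-95702406, plus strand): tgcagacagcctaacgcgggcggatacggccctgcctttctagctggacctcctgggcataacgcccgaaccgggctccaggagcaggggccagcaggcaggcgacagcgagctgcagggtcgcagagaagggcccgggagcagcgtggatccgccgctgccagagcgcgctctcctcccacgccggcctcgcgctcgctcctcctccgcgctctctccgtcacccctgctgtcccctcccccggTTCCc
*Mecom* (chr3:30509760-30510009, minus strand): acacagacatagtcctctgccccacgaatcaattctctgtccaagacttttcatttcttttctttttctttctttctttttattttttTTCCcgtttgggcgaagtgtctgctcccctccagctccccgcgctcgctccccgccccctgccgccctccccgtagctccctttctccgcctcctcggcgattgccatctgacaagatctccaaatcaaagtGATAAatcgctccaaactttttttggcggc
*Nr2f2* (chr7:70366747-70366996, minus strand): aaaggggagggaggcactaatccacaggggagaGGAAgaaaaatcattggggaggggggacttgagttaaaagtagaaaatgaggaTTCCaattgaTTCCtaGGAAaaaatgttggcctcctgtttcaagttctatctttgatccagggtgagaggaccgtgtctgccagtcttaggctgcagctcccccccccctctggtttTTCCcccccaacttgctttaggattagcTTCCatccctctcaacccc
The *Tal1* window held 4 GGAA matches and 1 GATAA match, the *Gata2* window 3 GGAA, the *Ets2* window 1 GGAA, the *Mecom* window 1 GGAA and 1 GATAA, and the *Nr2f2* window 6 GGAA. Of 32851 promoter windows of this length, 93.4% held at least 1 GGAA, with a median of 3 matches, and 22.6% held GATAA. A match is a description of these letters, not a site.

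The factors differed in how far they were shared with the mural, stromal and immune cells of the aorta. *Sox7*, *Tal1* and *Lyl1* did not exceed 20 CPM in any of the 19 profiles of the 11 other cell types (each type in each library with at least 50 cells). *Gata2* did so in 1, erythroid cells of AngII+HS at 45.1 CPM, and *Erg* in 4, all of them mural cells or fibroblasts. The erythroid value came from 21 UMIs in 3.64% of 110 cells. Cells that no marker list named are not among these profiles. As a class they held 76.6 CPM of *Gata2* in AngII+HS and 146 and 86.3 CPM of *Erg* in Control and AngII+HS. The class pools unlike clusters: of its 26 Control and 94 AngII+HS UMIs of *Gata2*, the cluster led by *Fgf14* held 3 and 2. The rest lay in a cluster led by *Cntnap2*, *Npy* and *Syt1*, with only 5 Control and 44 AngII+HS cells. In VECs, *Sox7* stood at 212 CPM in Control and 230 in AngII+HS, against at most 4.92 CPM elsewhere, in Control fibroblasts. *Tal1* stood at 126 and 75.3 CPM, against at most 16.5 CPM in Control macrophages. *Lyl1* was a weak signal at 13.4 and 9.05 CPM in VECs, and B cells of AngII+HS (16.4 CPM) and Control macrophages (12.9 CPM) were at the same level, from 36 and 28 UMIs.

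*Erg* was also read in vascular smooth muscle cells (VSMCs), at 91.3 CPM in Control (4697 UMIs in 4895 cells) and 99.9 in AngII+HS, against 222 and 180 CPM in VECs. The estimate of free RNA in those VSMCs was at most 1.38 CPM of *Erg*. *Fli1* passed 20 CPM in 17 of the 19 other profiles, with 640 CPM in Control B cells, 473 in Control T cells and 339 in Control neutrophils, as high as or higher than in c11. *Ets1* was highest in T cells, at 823 CPM in Control and 916 in AngII+HS, and *Ets2* in neutrophils, at 416 and 879. *Mecom* was read in fibroblasts (213 and 199 CPM) and VSMCs (189 and 182) but at no more than 22.1 CPM in any immune or neural profile. *Nr2f2* was read in pericytes (503 and 732 CPM), fibroblasts (447 and 428) and neural cells (382 and 407), more than in VECs (160 and 195).

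**Figure D1:**
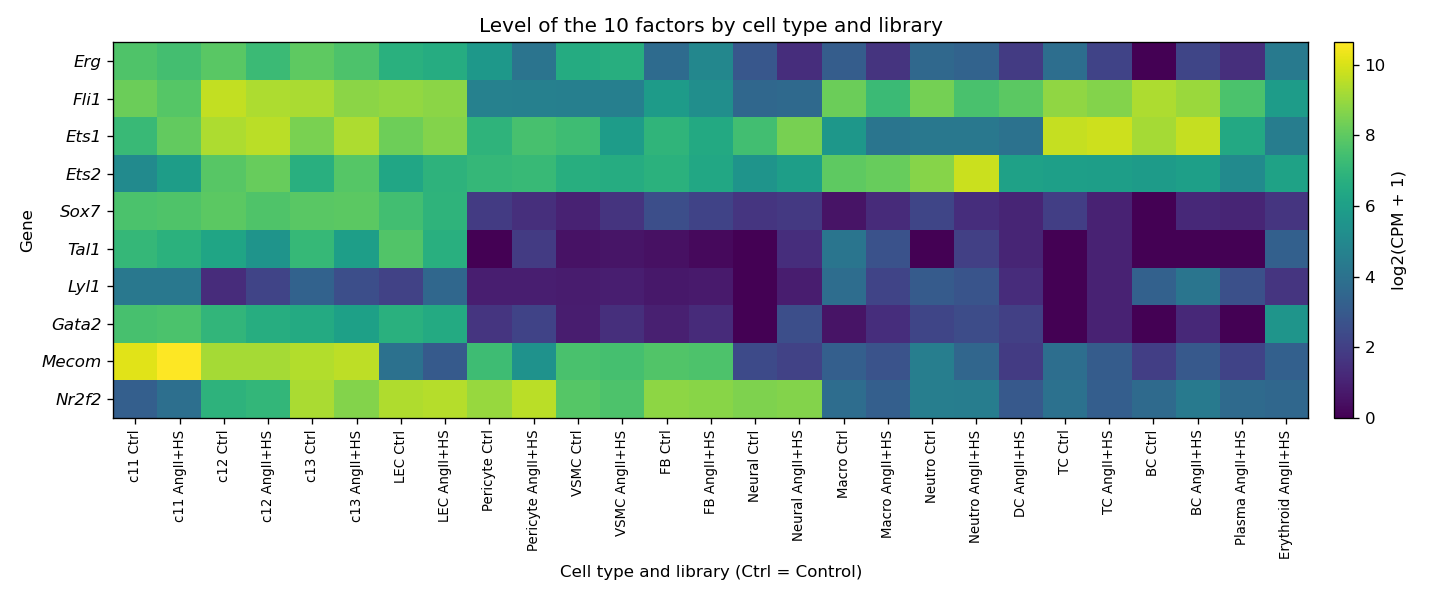
Level of each of the 10 factors, as log2(CPM + 1), in each named cell type and library with at least 50 cells (rows are genes, columns cell types). Cells that no marker list named are not shown. *Sox7*, *Tal1* and *Gata2* are high in the endothelial columns at the left and low in nearly all others (at most 45.1 CPM, *Gata2* in erythroid cells), whereas *Fli1*, *Ets1* and *Ets2* extend into immune cells and *Mecom* and *Nr2f2* into mural and stromal cells.

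Within endothelium the factors divided into 4 patterns. *Mecom* was highest in c11, at 1125 CPM (1085 to 1166) in Control and 1587 (1535 to 1641) in AngII+HS. It was lower in c13 (687 and 763) and c12 (590 and 588) and nearly absent from LECs (14.6 and 7.05, from 18 and 6 UMIs). *Nr2f2* had its highest and lowest levels at the other ends, with LECs at 660 and 708 CPM, c13 at 623 and 401, c12 at 116 and 132, and c11 at only 8.25 and 13.6. In Control the LEC level of *Nr2f2* was 80.0-fold that of c11 (interval 52.5 to 128), and the c11 level of *Mecom* 77.3-fold that of LECs (48.8 to 131). Free RNA, the mRNA of other cells that each droplet takes up, was estimated at 8.34 and 11.3 CPM of *Nr2f2* in c11, within the intervals of its level there. For *Mecom* in LECs the estimate was 4.36 CPM in Control, under the interval of the level (8.63 to 23.0), and 7.83 in AngII+HS, within it (2.59 to 15.4). The arterial factor and the venous and lymphatic factor thus lay at opposite ends of the same 4 groups in both libraries. Inside c13 they did not part in this way, as given below by subcluster.

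*Fli1*, *Ets1* and *Ets2* formed the second pattern, highest in c12 and lowest in c11 as whole subtypes. In Control, *Fli1* stood at 815 CPM in c12, 624 in c13, 473 in LECs and 302 in c11. *Ets1* stood at 636, 358, 307 and 146 CPM in the same order, and the c13 and LEC intervals overlapped for both *Ets1* and *Ets2*. *Ets2* stood at 236, 104, 76.9 and 32.6 CPM, a 7.23-fold difference between c12 and c11 (5.51 to 9.53). In AngII+HS the c12 level was still 2.75-fold that of c11 for *Ets1* (2.48 to 3.04) and 4.86-fold for *Ets2* (3.98 to 5.96).

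*Gata2* had the third pattern. It was highest in c11, at 186 CPM in Control and 193 in AngII+HS, and lowest in c13, at 88.5 and 65.6. *Lyl1* was read mainly in the same cells, with 48 of its 58 Control and 40 of its 56 AngII+HS UMIs in c11. *Erg* and *Sox7* were the most even over the VEC subtypes. In Control, *Erg* ranged only from 208 CPM in c11 to 255 in c13, with overlapping neighbours, and stood at 106 in LECs. *Sox7* ranged from 194 CPM in c11 to 244 in c12 and stood at 169 in LECs, where its interval overlapped that of c11. Inside the subtypes *Sox7* was less even. In Control it ran from 100 CPM (83.2 to 120) to 291 (259 to 325) over the c11 subclusters. In those of c13 it was 303 (261 to 351) and 103 (69.0 to 148). *Tal1* was highest in LECs in Control (215 CPM, against 137 in c13, 135 in c11 and 76.0 in c12).

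**Figure D2:**
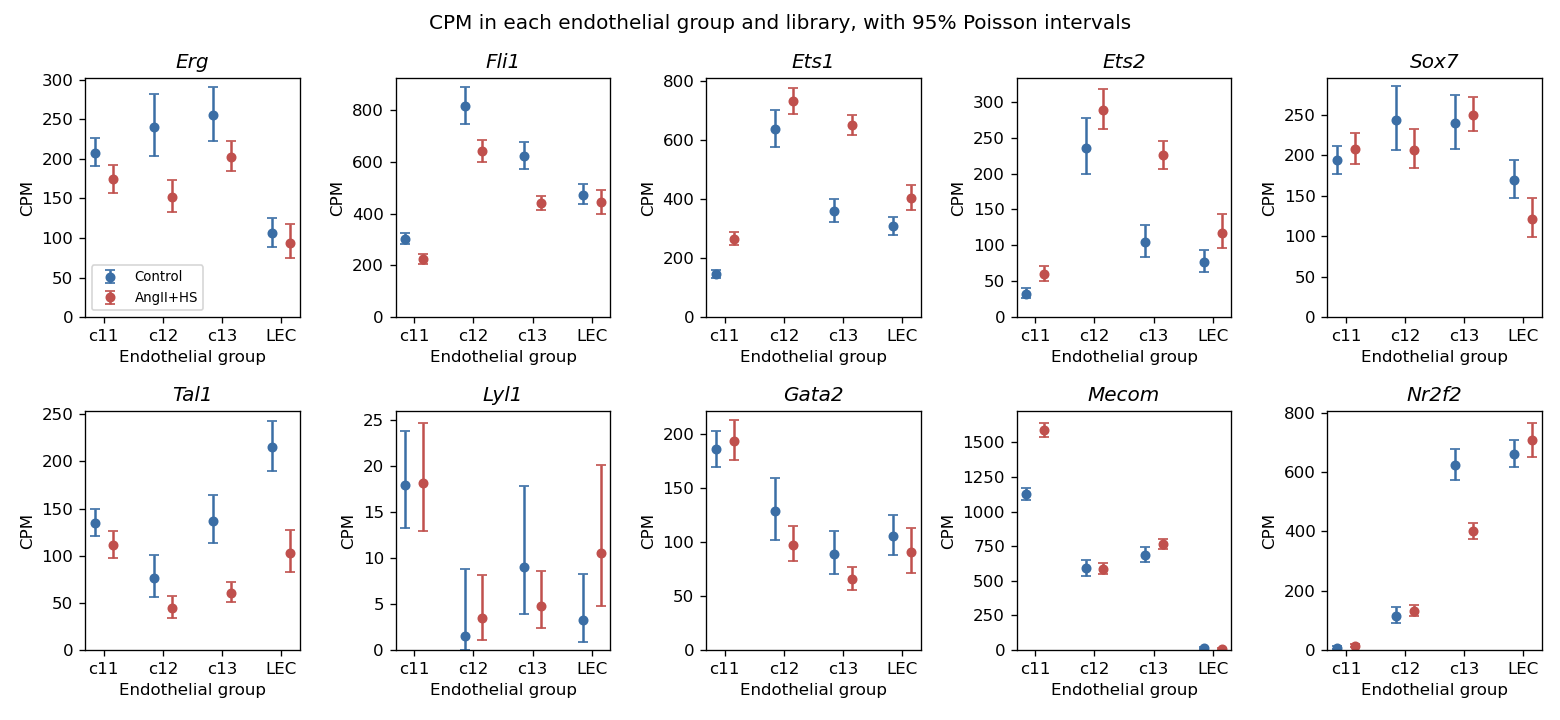
CPM of each factor in the 3 VEC subtypes (c11, c12, c13) and in LECs, Control in blue and AngII+HS in red, with 95% Poisson intervals of counting error; each panel has its own axis from 0. *Mecom* is highest in c11 and lowest in LECs, *Nr2f2* highest in LECs and lowest in c11, and the *Ets1* and *Ets2* points of AngII+HS lie above those of Control in every group.

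A single VEC carried several of the factors. A median of 4 of the 10 had at least 1 UMI in a Control VEC and 5 in an AngII+HS VEC, at median depths of 4267 and 3952 UMIs. With each cell thinned to 1000 UMIs the means were 1.91 and 2.11 factors, against 0.764 and 0.705 in fibroblasts. After thinning, the share of c11 cells with a *Mecom* UMI was 64.2% in Control and 73.5% in AngII+HS. For *Nr2f2* the share was 45.8% and 28.7% in c13, against 0.207% and 1.03% in c11.

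The comparison of AngII+HS with Control asks whether the 10 factors were lower together in aneurysmal aorta. They did not move in 1 direction: 2 were lower and 2 were higher in VECs by at least 0.5 on the log2 scale, the fold taken here as a call. Of 13153 genes with at least 20 UMIs in VECs, 16.9% were lower and 20.7% higher by this fold. The counts of the 10 were near these shares, so they do not set the factors apart from other genes or speak for the whole endothelial program. The 10 factors had a median log2 ratio (AngII+HS over Control) of -0.01, against 0.04 over all genes. The 2 higher were *Ets1* and *Ets2*, the 2 lower were *Tal1* and *Lyl1*, and *Erg*, *Fli1*, *Sox7*, *Gata2*, *Mecom* and *Nr2f2* stayed within the fold.

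*Ets1* in VECs was 274 CPM (258 to 290) in Control and 539 (521 to 557) in AngII+HS, a 1.97-fold higher level with a log2 ratio of 0.98 (0.88 to 1.07). *Ets2* was 79.7 CPM (71.5 to 88.5) in Control and 182 (171 to 193) in AngII+HS, a log2 ratio of 1.19 (1.02 to 1.37). The subtype with the lowest level of both, c11, took a smaller share of VECs in AngII+HS. With the 3 subtypes weighted equally in each library, the log2 ratios were 0.53 for *Ets1* and 0.62 for *Ets2*. Both were higher in each subtype, and least so in c12. *Ets1* was 146 and 266 CPM in c11 (log2 ratio 0.87, 0.68 to 1.06), 358 and 648 in c13 (0.86, 0.68 to 1.03), and 636 and 730 in c12, where it was already high (0.20, 0.03 to 0.37). *Ets2* was 32.6 and 59.5 CPM in c11 (0.87, 0.46 to 1.27), 104 and 226 in c13 (1.11, 0.79 to 1.45), and 236 and 289 in c12 (0.29, 0.02 to 0.57). The c12 interval of *Ets1* does not reach those of c11 and c13 as whole subtypes. By subcluster the separation was smaller. In the larger c11 subclusters the *Ets1* ratio was 0.57 (0.19 to 0.95) and 0.43 (0.11 to 0.75), intervals that overlap that of c12. In c13 it was 0.55 (0.37 to 0.74) in the larger subcluster and 1.22 (0.60 to 1.86) in the smaller. The c11 ratios of both factors were uneven over its subclusters, as given below.

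*Erg* and *Fli1*, the other 2 ETS factors, were lower in AngII+HS in all 3 VEC subtypes, mostly by less than the fold. *Erg* was 222 CPM in Control VECs and 180 in AngII+HS (log2 ratio -0.30, -0.43 to -0.17), and in c12 it passed the fold, at 241 and 152 CPM (-0.66, -0.97 to -0.36). Over the processing alternatives the c12 ratio of *Erg* ran from -0.76 to -0.43, at its weakest short of the fold. *Fli1* was 448 and 411 CPM in VECs (-0.12, -0.21 to -0.04), and this sign turned in thinned cells (0.16) and with equal weight per cell (0.0914). Within subtypes its difference was larger, with log2 ratios of -0.43 in c11, -0.34 in c12 and -0.50 in c13, just short of the fold, and -0.41 with equal subtype weights. These subtype differences were smaller in thinned cells, with log2 ratios of -0.07 in c11, -0.21 in c12 and -0.26 in c13.

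*Tal1* was 126 CPM (115 to 137) in Control VECs and 75.3 (68.6 to 82.5) in AngII+HS, a 1.67-fold lower level with a log2 ratio of -0.74 (-0.92 to -0.56). It was lower in all 3 subtypes and in LECs, at 135 and 111 CPM in c11, 76.0 and 44.6 in c12, 137 and 60.8 in c13, and 215 and 103 in LECs. The log2 ratio was -0.28 (-0.52 to -0.04) in c11, -0.77 (-1.33 to -0.20) in c12, -1.18 (-1.54 to -0.81) in c13 and -1.06 (-1.42 to -0.70) in LECs. With the subtypes weighted equally it was -0.68 in VECs, and with equal weight per cell -0.49. In cells thinned to 1000 UMIs it was -0.58 in VECs and -1.70 in c13, but -0.35 in c12 and -0.22 in LECs, short of the fold, and it turned to 0.14 in c11. *Gata2*, a partner of *Tal1*, was 157 CPM in Control and 119 in AngII+HS (-0.39, -0.54 to -0.24), but 186 and 193 in c11, and the VEC ratio was -0.17 with equal subtype weights. *Lyl1*, from 58 and 56 UMIs, had a log2 ratio of -0.57 (-1.12 to -0.01) that was -0.12 with equal subtype weights and 0.01 in c11, and it turned to 0.18 in cells thinned to 1000 UMIs.

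*Sox7* did not differ beyond counting error in VECs (212 and 230 CPM, log2 ratio 0.11, -0.01 to 0.23) or in any VEC subtype. In LECs it was 169 CPM in Control and 121 in AngII+HS (-0.48, -0.84 to -0.13), but the sign turned in thinned cells (0.21). In thinned c13 cells its ratio was 0.53. Its SOXF relative *Sox18* was 281 and 188 CPM in VECs (-0.58, -0.69 to -0.46), and *Sox17* 171 and 189 (0.14, 0.01 to 0.28), both named here for kinship after their values were seen. By subtype the *Sox18* ratio was -0.95 in c11, -0.29 in c12 and 0.14 (-0.15 to 0.44) in c13. That of *Sox17* was 0.07, 0.45 and 2.13 in the same order.

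For *Mecom* and *Nr2f2* the VEC average and the subtypes differed. *Mecom* was 929 and 1003 CPM over VECs (0.11, 0.05 to 0.17). In c11, where it is highest, it was 1125 and 1587 CPM, a log2 ratio of 0.50 (0.43 to 0.57) just short of the fold. In c13 the ratio was 0.15 (0.02 to 0.29) and in c12 -0.01 (-0.18 to 0.17). In the 2 subclusters of c13 the *Mecom* ratio was larger than over c13 as a whole, at 0.25 (0.08 to 0.43) and 0.76 (0.53 to 0.99). The second value, past the fold, is of the subcluster with more *Nr2f2*. *Nr2f2* over VECs was 160 CPM in Control and 195 in AngII+HS (0.28, 0.15 to 0.42). In c13, which holds most of it, it was 623 (572 to 677) and 401 (375 to 428), a log2 ratio of -0.64 (-0.79 to -0.48). With equal subtype weights the VEC ratio changed sign to -0.45. In the 2 subclusters of c13 the *Nr2f2* log2 ratios were -0.24 and -0.56, smaller than over c13 as a whole, and the subcluster with the higher level went from 70 of 167 to 88 of 348 c13 cells. The lymphatic factor *Prox1* moved with it in c13, at 119 and 27.5 CPM (-2.11, -2.59 to -1.65), against 894 and 887 CPM in LECs. *Nr2f2* and *Tal1* were also highest in Control LECs, and the part of lymphatic RNA or cells in their c13 ratios was not tested. The c11 ratio of *Nr2f2*, 0.72, came from 22 and 30 UMIs, at the estimated level of free RNA, and has an interval from -0.12 to 1.59.

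By subtype, the counts of called factors were 0 lower and 3 higher of 10 in c11, where 14.2% and 17.6% of genes were lower and higher. The c11 calls were *Ets1*, *Ets2*, which was 0.497 in thinned cells, and *Nr2f2* from 22 and 30 UMIs, with an interval of -0.12 to 1.59. In c12 they were 2 lower and 0 higher of the 9 with at least 20 UMIs (background 18.6% and 21.9%), and in c13 2 and 2 of 9 (18.4% and 32%). In LECs 2 were lower and 1 higher of 9 (13.8% and 24.6%). The LEC calls were *Tal1*, which was -0.22 in thinned cells, *Mecom* from 24 UMIs, with an interval of -2.67 to 0.35, and *Ets2* at 76.9 and 118 CPM (0.61, 0.19 to 1.03), which was 0.48 with TMM scaling and -0.68 in thinned cells. *Nr2f2*, the lymphatic factor, was 660 and 708 CPM in LECs, a difference within counting error (0.10, -0.05 to 0.25).

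**Figure D3:**
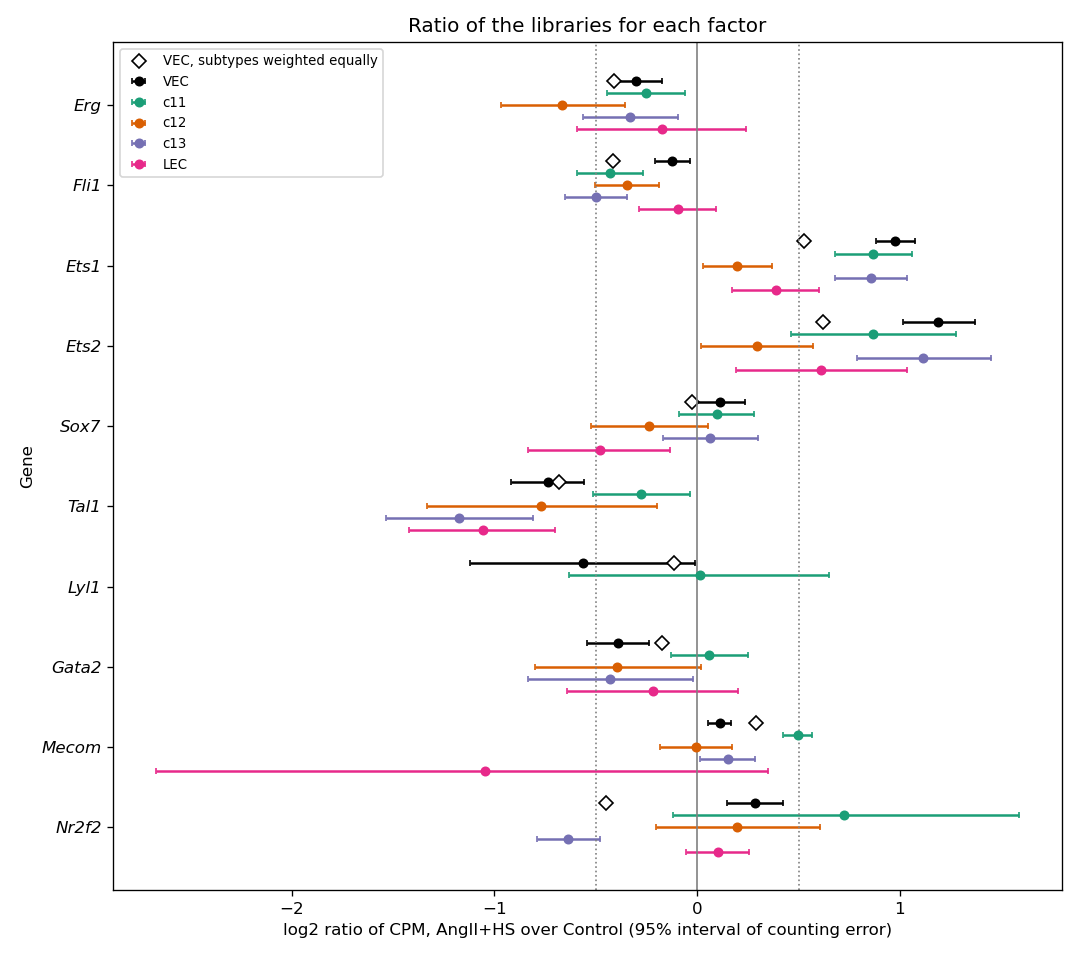
Log2 ratio of CPM, AngII+HS over Control, for each factor in all VECs (black), c11, c12, c13 and LECs, with 95% intervals of counting error; dotted lines mark the fold of 0.5, and open diamonds the VEC ratio with the 3 subtypes weighted equally. *Ets1* and *Ets2* lie to the right in every group and *Tal1* to the left, and the diamond of *Nr2f2* lies on the other side of 0 from its black point.

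Markers of other cells moved with the condition in the same VECs. Of 14 immune genes, 13 had at least 20 UMIs in VECs and all 13 were higher in AngII+HS, their summed level being 39.2 CPM in Control and 589 in AngII+HS, with none of the 14 at 0 in AngII+HS and 1 at 0 in Control. *Ptprc*, the pan-leukocyte gene, was 1.39 and 14.7 CPM. Of 11 mural and fibroblast genes, 2 were lower and 6 higher, with a summed level of 1246 and 1528 CPM. Of all genes in VECs, 16.9% were lower and 20.7% higher. The summed mural and fibroblast level differed by subtype, at 1062 and 1997 CPM in c11, 1083 and 1230 in c12, and 1454 and 942 in c13. Free RNA was estimated at 3.94% and 5.15% of VEC UMIs, and at most 10.8 CPM for any of the 10 factors. After its subtraction the VEC log2 ratio was 1.01 for *Ets1*, 1.2 for *Ets2* and -0.72 for *Tal1*. The part of these other cells' genes in the results was not tested beyond this subtraction.

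The VEC subclusters gave the difference a finer grain. In all, 6 of them had at least 50 cells in each library: 3 in c11, 2 in c13 and 1 in c12. *Ets1* was higher in AngII+HS in 6 of 6, each with an interval above 0, with log2 ratios from 0.20 to 1.31. *Ets2* was higher in 6 of 6, 4 of them with an interval above 0. Within c11 its log2 ratio was 2.08 (1.27 to 2.98) in the smallest subcluster. In the larger c11 subclusters it was 0.27 (-0.49 to 1.03) and 0.22 (-0.46 to 0.91). *Ets1* was likewise 1.31 in the smallest c11 subcluster, against 0.57 and 0.43 in the larger ones. *Erg* and *Fli1* were lower in 6 of 6, of which 2 and 4 had an interval below 0. *Mecom* was higher in 5 of 6, with ratios up to 0.76. *Tal1* was lower in 5 of 6, but only 3 had an interval below 0. The exception was the largest c11 subcluster, at 84.5 CPM in Control and 106 in AngII+HS, a difference within counting error (0.33, -0.09 to 0.74). In c13 the *Tal1* ratio was -1.46 (-1.85 to -1.05) in the larger subcluster and -0.15 (-1.12 to 0.79) in the smaller. The c11 cells were not alike: the smallest c11 subcluster had 316 and 781 CPM of *Ets1*, and the largest 91.9 and 137. In AngII+HS the smallest (692 to 878) was thus not below c12, at 730 CPM (686 to 775). Likewise 1 of the 2 c13 subclusters held 1023 and 694 CPM of *Nr2f2* and the other 435 and 367. The *Nr2f2*-rich subcluster also held more *Mecom*, at 970 and 1644 CPM against 555 and 662. It held more *Fli1* (785 and 681 against 548 and 414) and less *Ets1* (121 and 281 against 470 and 691). Some subclusters were weakly named, by the mean log2 excess of the subtype's markers over the other VECs. This excess was 0.13 in the smallest c11 subcluster, against 1.76 and 1.13 in the larger ones. In c13 it was 0.59 in the subcluster with more *Nr2f2*, against 1.74 in the other. *Gpm6a* and *Clca3a1* were among the 10 leading genes of that *Nr2f2*-rich subcluster and also of the LEC cluster.

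**Figure D4:**
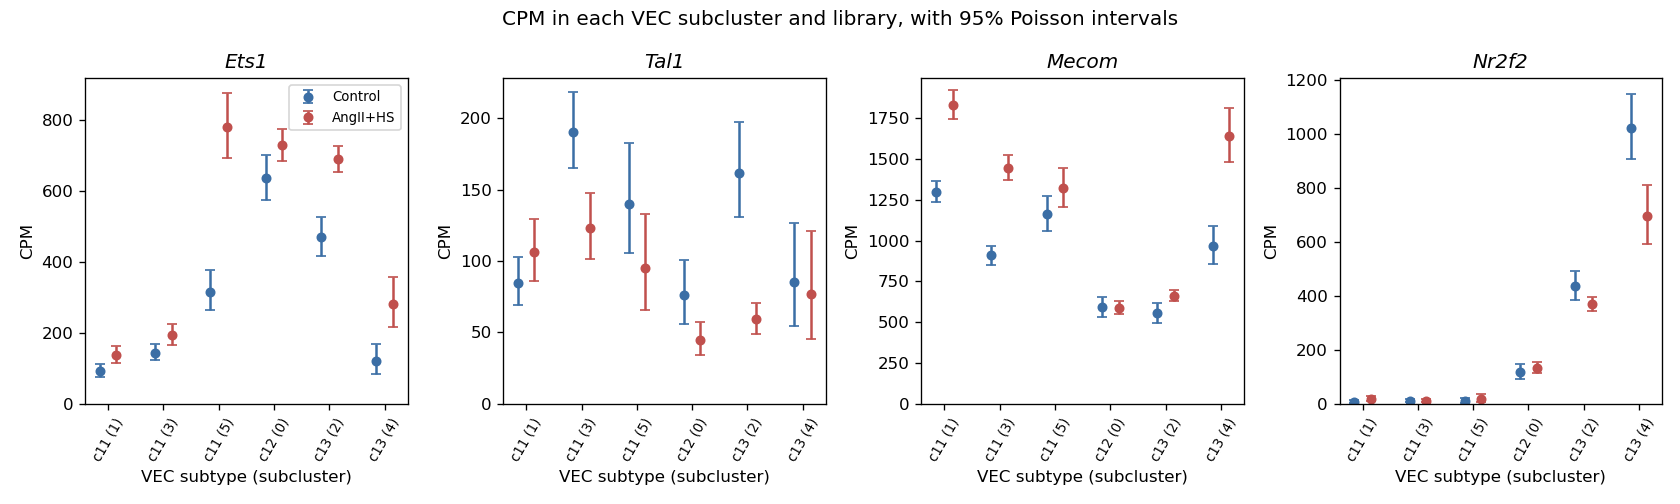
CPM of *Ets1*, *Tal1*, *Mecom* and *Nr2f2* in the 6 VEC subclusters with at least 50 cells in each library, with 95% Poisson intervals of counting error (blue Control, red AngII+HS; the number in brackets is the subcluster). The red *Ets1* point is above the blue one in all 6, and *Nr2f2* is near 0 in the 3 c11 subclusters.

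Outside endothelium, ratios are given for factors with at least 50 UMIs in each library that passed the fold with an interval leaving out 0. *Ets1* differed in the opposite direction from VECs in VSMCs, at 158 CPM in Control and 57.9 in AngII+HS (log2 ratio -1.45, -1.62 to -1.30), where 24.6% of genes were lower and 15.1% higher. It was also lower in macrophages, at 47.8 and 16.4 CPM (-1.54, -1.86 to -1.20), where 33.4% of genes were lower, and in fibroblasts, at 123 and 86.1 CPM (-0.51, -0.61 to -0.41), where 23.8% were. The fibroblast ratio was -0.31 with TMM scaling. The macrophage ratio was -0.33 after subtraction of free RNA, but the estimate was too high in Control macrophages. There it came to 52.0 CPM of *Mecom*, where 8.27 CPM (4.90 to 13.1) was read, and to 39.4 of the 47.8 CPM of *Ets1*. The estimate for *Mecom* also passed the interval of the level in other groups. It was 23.5 CPM against 10.3 (7.93 to 13.2) in AngII+HS neutrophils and 22.9 against 4.25 (0.514 to 15.3) in Control neural cells. In neural cells *Ets1* was higher, at 168 and 345 CPM (1.04, 0.69 to 1.41), with 17.9% of genes higher. *Fli1* was lower in macrophages (300 and 149 CPM, -1.01), in neutrophils (339 and 190 CPM, -0.83), where 25.1% of genes were lower, and in fibroblasts (55.8 and 36.7 CPM, -0.60, or -0.40 with TMM scaling). *Ets2* was higher in neutrophils, at 416 and 879 CPM (1.08, 0.81 to 1.36), where 41.6% of genes were higher and Control had 99 cells. *Erg* was higher in fibroblasts, at 12 and 29.0 CPM (1.28, 1 to 1.57), with 14.2% of genes higher, and the level differed by fibroblast cluster: it was 37.5 CPM in AngII+HS in the cluster led by *Comp* and 4.24 in the cluster led by *Sdk1*. In pericytes *Ets1* was 120 and 185 CPM (0.63) and *Nr2f2* 503 and 732 (0.54), with 22.3% of genes higher, and both signs turned when double the number of doublets was removed, to -0.44 and -0.66. The minimum of 50 UMIs in each library leaves out factors that are low in 1 library. Without it, *Mecom* was lower in pericytes, at 160 and 41.7 CPM from 377 and 49 UMIs (-1.95, -2.41 to -1.51), as was *Erg*, from 118 and 19 UMIs (-1.64, -2.42 to -0.93), with 18.6% of genes lower. The pericyte cluster led by *Nxph1* held 91 of 265 Control and 12 of 228 AngII+HS pericytes and had 97.7 CPM of *Erg* in Control. In the other pericyte cluster, led by *Pln*, *Mecom* was 122 and 26.0 CPM and *Erg* 21.2 and 8.95. In macrophages *Erg* (-1.95), *Tal1* (-1.64) and *Lyl1* (-1.86) were also lower without the minimum, from at most 36 UMIs in Control. The pericyte and macrophage ratios given without the minimum were not run under any of the processing alternatives.

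Other endothelial transcription factors were read from a list of 32 genes, and endothelial genes with known ETS, SOXF, GATA or TAL1 sites from a list of 30. Of the 32 factors, 12 were lower and 7 higher in VECs, with a median log2 ratio of -0.08, beside 16.9% of all genes lower and 20.7% higher and a median of 0.04. At the ends of the list with at least 200 UMIs, *Sox13*, a SOX factor, was 104 and 42.2 CPM (-1.30, -1.53 to -1.08), *Klf2*, a factor induced by laminar flow, 1884 and 858 (-1.13, -1.18 to -1.08), and the homeobox factor *Meis2* 257 and 139 (-0.89). *Hey1*, a Notch target, was 15 and 39.3 CPM (1.39, 0.99 to 1.81), the E-protein *Tcf4* 848 and 1783 (1.07, 1.02 to 1.13), and the ETS repressor *Etv6* 236 and 365 (0.63). The subtype mixture was not held constant in these values. *Meis2* was 312 and 298 CPM in c11 (-0.06, -0.21 to 0.08) and 285 and 74.8 in c13 (-1.93). The *Sox13* ratio was -0.98 in c11, -1.05 in c13 and 0.82 in c12, there from 55 UMIs (-0.16 to 1.92). *Klf2* was lower in each subtype, and *Hey1*, *Tcf4* and *Etv6* were higher in each. Within c13, 12 of 27 were lower and 6 higher (18.4% and 32% of all genes), and in c11 4 of 28 were lower and 4 higher (14.2% and 17.6%).

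Of the 30 genes with known sites, 5 were lower and 6 higher in VECs, with a median of 0.13, beside the same 16.9% and 20.7% of all genes. *Nos3*, the endothelial nitric oxide synthase, was 326 and 148 CPM (-1.14, -1.26 to -1.02), the arterial connexin *Gja5* 338 and 188 (-0.84), and the angiopoietin receptor *Tek* 401 and 240 (-0.74). *Aplnr*, the apelin receptor, was 19.2 and 171 CPM (3.16, 2.84 to 3.50), the sialomucin *Emcn* 317 and 802 (1.34), and *Robo4*, which stabilises vessels, 38.8 and 73.2 (0.92). *Cdh5*, VE-cadherin, a known ERG target, was 1176 and 1279 CPM (0.12, 0.07 to 0.17). *Pecam1*, the adhesion molecule CD31, was 3041 and 1938 (-0.65, -0.69 to -0.61), and these 2 markers were added to the named genes of the list after their values were seen. The subtype mixture was not held constant in these values, and *Gja5* is itself a marker of c11, where it was 546 CPM in Control and 522 in AngII+HS. Within c11, 2 of 29 genes with known sites were lower and 8 higher (14.2% and 17.6% of all genes). Within c13 5 of 28 were lower and 10 higher, near the shares of all genes (18.4% and 32%).

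**Figure D5:**
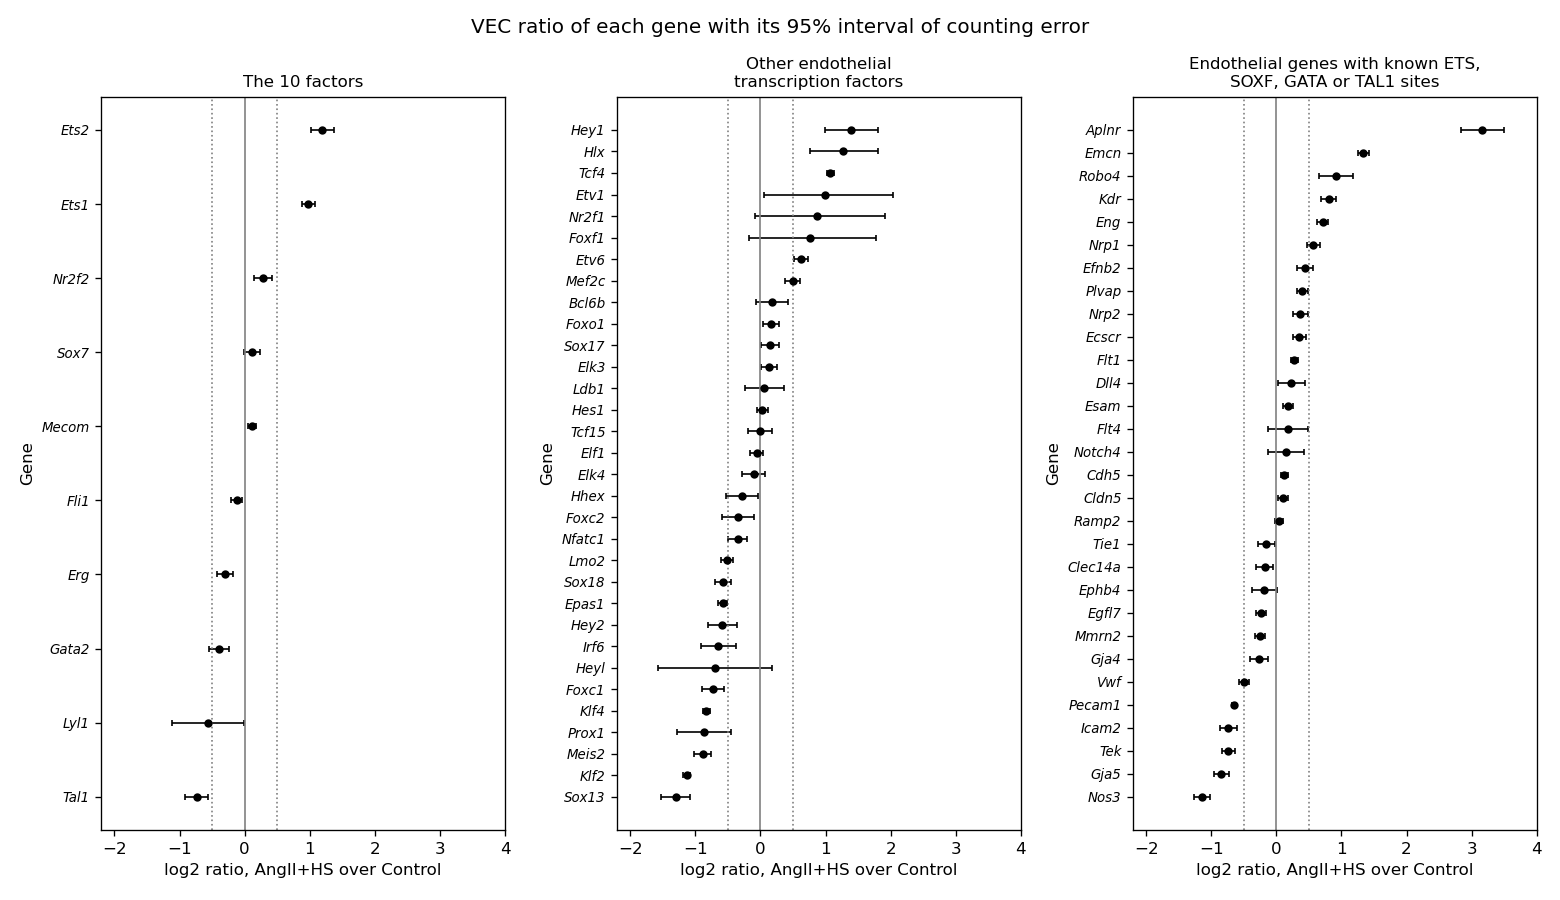
Log2 ratio in VECs, AngII+HS over Control, with 95% intervals of counting error, for the 10 factors (left), the 32 other endothelial transcription factors (middle) and the 30 endothelial genes with known sites (right); dotted lines mark the fold of 0.5. In each panel genes lie on both sides of 0, from *Tal1* at -0.74 to *Ets2* at 1.19 for the 10 factors.

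The genes whose profile was most like each factor were found by Pearson correlation of log2(CPM + 1) over 27 profiles of cell type or VEC subtype and library, among 14335 genes. The profiles come from 2 libraries and share them, so r is a description. *Sox7* was closest to *Podxl*, *Mmrn2* and *Ptprb* (r = 0.98 each), and *Tal1* to *Pkn3* (0.96), *Tie1* (0.95) and *Egfl7* (0.94). *Gata2* was closest to *Nova2* and *Stap2* (0.95 each) and *Pkn3* (0.94), and *Erg* to *Rnd1* (0.92), *Cdh13* (0.91) and *Cav1* (0.90). *Mecom* was closest to its antisense partner *Mecomos* (0.93), then *Galnt15* and *Hoxb5* (0.89 each), and *Nr2f2* to *Adamts5* (0.94), to the antisense *B130024G19Rik* (0.92) and to *Gm29683* (0.91). *Ets1* was closest to *Pds5b*, the ETS factor *Elf1* (0.90 each) and *Dop1a* (0.88), and *Fli1* to *Itpr2* (0.89), *Neurl3* and *Arhgap27* (0.88 each). *Ets2* (*Rab7*, *Rab20*, *Sdcbp*, 0.79 each) and *Lyl1* (*Hhex* 0.79, *Lmo2* 0.77, *4931422A03Rik* 0.75) had looser neighbours. Among the 10 themselves the closest pairs were *Tal1* with *Gata2* and *Sox7* with *Gata2*, both at 0.92, and *Fli1* with *Nr2f2* was at -0.40.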

How the data were processed

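Per the labels and the study's methods, suprarenal aortas were dissociated and made into 10x 3' v3.1 libraries, 1 per condition. The deposited values are raw counts of UMIs for every gene in every cell, made by the authors with Cell Ranger (7.0 in the methods, 8.0.1 in the matrix headers). The methods name GRCm39 and the labels mm10. The 10 factors and the gene lists were chosen with earlier results of these data known.

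A cell was kept if it had 500 UMIs or more, 200 genes or more and a mitochondrial share under 20%, and doublets scored with Scrublet (scanpy 1.11.5, Python 3.11.15) were removed at a rate of 0.8% per 1000 cells (1019 Control and 4826 AngII+HS barcodes). The depth of the kept cells was a median of 7274 and 3065.5 UMIs. Cells were integrated and clustered with Seurat 5.3.0 (R 4.3.3) on 2000 variable genes, 30 components and resolution 0.8, leaving the 10 factors out of the genes clustered on. VECs were reclustered without the subtype markers (20 components, resolution 0.4), and clusters were named from fixed marker lists. Differences from the study's own clusters may come from these rebuilt names.

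CPM is the sum of a gene's UMIs over the cells of a type in 1 library, over all UMIs of those cells and scaled to 1e6. Intervals are exact Poisson for CPM and exact binomial for ratios and shares. With 1 library per condition no test was run, and a log2 ratio of 0.5 or more in size, among genes with at least 20 UMIs, was counted as lower or higher. Thinned values take 1000 UMIs per cell and leave out shallower cells. Free RNA was estimated from immune genes that endothelial cells should lack. TMM factors came from edgeR 4.0.16. The ratio and interval steps were tested on simulated data. Genes named were the 10 factors, for each the 3 genes of most similar profile among genes at 10 CPM or more in a profile, and the 3 lowest and 3 highest of each list with at least 200 UMIs in VECs. The 2 barcode lists share 67 barcodes and were not used otherwise.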

Additional observations from a re-analysis of the deposited data

Results flagged for a closer look

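Some of the factors were called in opposite directions in different cell groups, and no difference between the groups was tested, since each group has 1 library per condition. *Ets1* was higher in AngII+HS in c11 (log2 ratio 0.87), c13 (0.86), neural cells (1.04) and pericytes (0.63), and lower in fibroblasts (-0.51), macrophages (-1.54) and VSMCs (-1.45). *Erg* was higher in fibroblasts (1.28) and lower in c12 (-0.66, or -0.76 to -0.43 over the processing alternatives). *Nr2f2* was higher in pericytes (0.54) and lower in c13 (-0.64). The pericyte ratios turned to -0.44 for *Ets1* and -0.66 for *Nr2f2* with double the number of doublets removed. The fibroblast ratio of *Ets1* was -0.31 with TMM scaling. Its macrophage ratio was -0.33 after subtraction of free RNA. That estimate was too high in Control macrophages, where it came to 52.0 CPM of *Mecom* against 8.27 CPM read.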

How the results depend on the processing

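In all, 17 alternatives were tried, of which 9 to 14 gave a value for each ratio run. Outside endothelium only ratios with at least 50 UMIs in each library that passed the fold were run. In VECs, *Ets1* (0.53 to 1.06) and *Ets2* (0.62 to 1.42) stayed past the fold under each alternative run, while *Tal1* (-0.80 to -0.49) fell just short under equal weight per cell. With the 3 subtypes weighted equally the VEC log2 ratios were -0.41 for *Fli1*, 0.53 for *Ets1*, 0.62 for *Ets2*, -0.0272 for *Sox7*, -0.17 for *Gata2*, 0.29 for *Mecom* and -0.45 for *Nr2f2*, and 1 factor was lower by the fold. With equal weight per cell they were 0.0914 for *Fli1*, 1.42 for *Ets2*, -0.49 for *Tal1* and 0.21 for *Mecom*, with 1 factor lower. In cells thinned to 1000 UMIs they were -0.43 for *Erg*, 0.16 for *Fli1*, 0.30 for *Sox7*, 0.18 for *Lyl1* and 0.0160 for *Mecom*, with 1 factor lower, and *Ets2* in LECs turned to -0.68, *Sox7* in LECs to 0.21 and *Tal1* in c11 to 0.14, while *Tal1* in LECs was -0.22 and in c12 -0.35. Without doublet removal they were -0.47 for *Erg*, 0.74 for *Ets1*, 1.01 for *Ets2*, -0.0416 for *Sox7* and 0.0498 for *Mecom*. With double the number of doublets removed they were -0.0360 for *Fli1* and 0.18 for *Mecom*, and in pericytes *Ets1* turned to -0.44 and *Nr2f2* to -0.66. Without the minimum of 20 UMIs, 27.0% of genes were lower in VECs. TMM scaling shifted log2 ratios by 0.31 in macrophages, 0.21 in fibroblasts, -0.13 in LECs and -0.11 in pericytes. The cause of these movements was not tested. No paired analysis was possible because each condition has 1 library, and for the same reason no replicate could be left out.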

Other observations

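Mast cells, which express *Gata2*, formed no cluster. At least 3 of the mast cell markers were read in 9 Control and 5 AngII+HS cells, which held 12 and 20 *Gata2* UMIs. A cluster led by *Fgf14* that matched no marker list (470 Control and 263 AngII+HS cells) held 150 and 178 CPM of *Erg*.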
